A study of Gallus gallus with 8 samples.

Results

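The proteasome is the large protease that degrades proteins tagged with ubiquitin. Its barrel-shaped core particle is built of alpha rings, which gate the barrel, and beta rings, which carry the proteolytic sites inside it. A regulatory particle sits on the end of the barrel, where its lid and base recognise the ubiquitin chain, remove it, and unfold and feed in the substrate. Cells make the subunits as separate proteins that dedicated chaperones put together, and in mammals the transcription factor NFE2L1 raises many subunit genes at once when proteasome activity falls short. The roles given below are those known from yeast and mammals.

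The genes described were chosen by name, as all genes of the expression table called PSMA, PSMB, PSMC, PSMD, PSME, PSMF or PSMG with a number. This rule found 34 of the 14642 genes in the table, and it used no measured value. All 34 passed the filter on low values that left 11155 genes for testing. RNA-Seq had been run on dorsal skin of chicken embryos after the epithelium and the mesenchyme had been separated, with 2 libraries in each of 4 groups: H&H 35 mesenchyme, H&H 35 epithelium, H&H 31 mesenchyme and H&H 31 epithelium. H&H 31 is embryonic day 7 and H&H 35 is embryonic day 9, and the study compared the stages to look for ion channel genes behind a change in the electric currents of feather buds. All groups were untreated whole-tissue fractions. The study used white leghorn eggs, and the number of embryos behind a library is not given in the sources used here. The labels call the replicates of each group batch I and batch II.

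Library depth lay between 22050712 and 33620383 alignments. Values are RPKM, reads scaled to transcript length and to the mapped reads of the library. Levels are compared between genes on this scale, and whether all genes were mapped and annotated equally well was not checked. The sums of the marker lists matched the labels of the fractions, though DCN did not follow its label at H&H 31. The summed RPKM of 9 epithelial markers was 32.3 to 34.2 in H&H 35 mesenchyme and 9.42 to 14.7 in H&H 31 mesenchyme, against 1938 to 2142 in H&H 35 epithelium and 594 to 801 in H&H 31 epithelium. The summed RPKM of 9 mesenchymal markers was 3668 to 4151 in H&H 35 mesenchyme and 4116 to 4299 in H&H 31 mesenchyme, against 715 to 756 in H&H 35 epithelium and 871 to 989 in H&H 31 epithelium. Most of the mesenchymal marker signal in epithelium came from DCN and COL1A2, while TWIST1 averaged 0.32 RPKM in H&H 35 epithelium and 0.09 RPKM in H&H 31 epithelium. VIM averaged 103 RPKM in H&H 31 epithelium. By limma 8 of the 9 were higher in mesenchyme at H&H 31 and 9 at H&H 35, against 29.7% and 29.1% of all genes tested. DCN, the exception, averaged 298 RPKM in H&H 31 mesenchyme and 331 RPKM in H&H 31 epithelium (limma adjusted p = 0.188).

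The core particle was represented by 11 genes. The alpha ring had PSMA1, PSMA2, PSMA3, PSMA4, PSMA6 and PSMA7. The beta ring had PSMB1, PSMB2, PSMB3, PSMB4 and PSMB7, of which only PSMB7 carries a proteolytic site, the one that cuts after basic residues. The regulatory particle was represented by 15 genes. Its ring of ATPases, which unfolds substrates, had PSMC1, PSMC2, PSMC3, PSMC5 and PSMC6. The base further held the scaffold subunits PSMD1 and PSMD2 and the ubiquitin receptor PSMD4. The lid had PSMD3, PSMD6, PSMD7, PSMD11, PSMD12, PSMD13 and PSMD14, the last being the enzyme that removes ubiquitin chains. PSMD5, PSMD9 and PSMD10 are chaperones of the base, PSMG2 and PSMG3 are chaperones of the core, PSME3 and PSME4 are alternative activators that cap the core, and PSMF1 is a protein first described as a proteasome inhibitor. PSMA5, PSMA8, PSMB5, PSMB6, PSMB8, PSMB9, PSMB10, PSMB11, PSMC4, PSMD8, PSME1, PSME2 and PSMG4 were not in the expression table under these names. The other constitutive proteolytic subunits and the inducible ones are therefore missing from the description. Whether the chicken has each of the genes not found was not checked.

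All 34 genes were expressed in every library. PSMB7 had the highest mean level over the 8 libraries, at 166 RPKM, followed by PSMA1 at 146 RPKM and PSMA3 at 145 RPKM. The activator PSME4 was lowest in every library and averaged 11.9 RPKM. Within a library the highest of the genes was 11 to 17.5 times as abundant as the lowest. Levels within one particle were uneven as well, since the beta subunit PSMB2 averaged 26.1 RPKM and the alpha subunit PSMA7 38.3 RPKM, well under the other members of their rings. PSMD5, at 18.9 RPKM, and PSMD10, at 27.6 RPKM, were also near the lower end. Across libraries a single gene varied much less. The highest library exceeded the lowest by 1.23 times for PSME4 and PSMD10 and by 2.16 times for PSMD3, and the other genes lay between these.

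H&H 35 mesenchyme stood lowest. The mean RPKM of 31 of the 34 genes was lowest in this group, against 32.9% of all genes tested. The exceptions were PSMC6, lowest in H&H 31 epithelium, PSMG2, lowest in H&H 31 mesenchyme, and PSME4, lowest in H&H 35 epithelium. The highest mean was in H&H 35 epithelium for 20 genes, in H&H 31 mesenchyme for 11 and in H&H 31 epithelium for 3. Of all genes tested, 30.7%, 21.7% and 23.6% were highest in these groups. The summed RPKM of the 34 genes was 2231 and 2097 in H&H 35 mesenchyme (batches I and II), against 2726 and 2828 in H&H 31 mesenchyme. It was 3135 and 2628 in H&H 35 epithelium, against 2574 and 2630 in H&H 31 epithelium. These sums amounted to 0.654% and 0.656% of all RPKM in H&H 35 mesenchyme and to between 0.749% and 0.854% in the other 6 libraries. The summed core genes were 1.08 to 1.15 times the summed genes of the regulatory particle in all libraries, so both particles were low or high in the same libraries. In such bulk tissue, fewer cells of a type and less RNA per cell cannot be told apart.

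**Figure D1:**
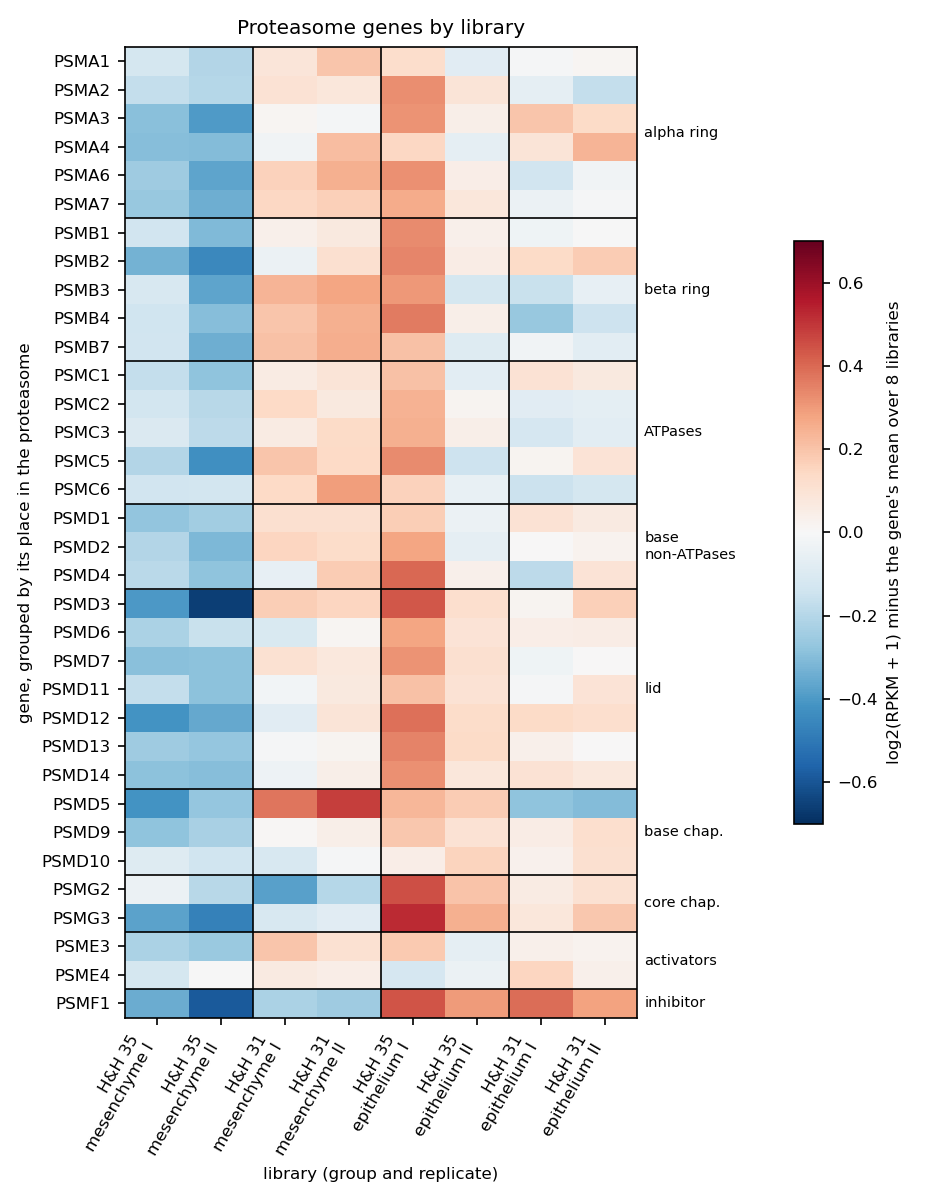
Colour gives log2(RPKM + 1) of each of the 34 genes (rows, grouped by place in the proteasome) in each of the 8 libraries (columns), minus that gene's mean over the 8 libraries. Both H&H 35 mesenchyme libraries are blue for most genes, and among the H&H 35 epithelium libraries batch I is above batch II in 32 of the 34 genes.

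The libraries of H&H 35 epithelium differed from each other. Batch I exceeded batch II in 32 of the 34 genes there, whereas 46.2% of all genes tested did so, and the median gap between the 2 libraries was 16.6% of the mean. In H&H 35 mesenchyme batch I was higher for 26 genes, against 52.1% of all genes tested, with a median gap of 6.65%. In H&H 31 mesenchyme and H&H 31 epithelium batch I was higher for 11 and 12 genes, against 35.8% and 50.9% of all genes tested. The median gaps in these groups were 3.70% and 3.37%. Medians of the 34 genes that involve H&H 35 epithelium are therefore given with and without each of its libraries. Genes outside the 34 are given below from the fit of all libraries only.

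Between H&H 31 and H&H 35 the proteasome genes fell in mesenchyme. Of the 34 genes, 26 fell and 0 rose at a limma adjusted p under 0.05 over all genes tested, while 21.6% of all genes tested fell and 18.2% rose. At an unadjusted p under 0.05 also 0 rose. The median difference, H&H 35 minus H&H 31, was -0.33 on the log2(RPKM + 1) scale over the 34 genes and -0.03 over all genes tested, and the quartiles of the 34 genes were -0.42 and -0.27. Both H&H 35 libraries were below both H&H 31 libraries for 32 of the 34 genes, against 38.1% of all genes tested. Within batch I 32 genes were lower at H&H 35, with a median of -0.27, and within batch II 33 genes, with a median of -0.38. These counts stood against 50.7% and 55.2% of all genes tested.

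The fall ran through all parts of the complex. All 6 alpha genes fell, as did 4 of 5 beta genes, 4 of 5 ATPases, 2 of 3 other base genes, 6 of 7 lid genes, the base chaperones PSMD5 and PSMD9, the core chaperone PSMG3 and the activator PSME3. Genes that did not pass the test were PSMB1, PSMC3, PSMD4, PSMD6, PSMD10, PSME4, PSMF1 and PSMG2. PSMB1 (-0.27), PSMC3 (-0.24) and PSMD4 (-0.29) had log2 differences close to those of the genes that fell least. With the batch number as a block PSMD11 was not called (limma adjusted p = 0.0504, against 0.0380 without the block).

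PSMD5, the base chaperone, changed the most. It had 13.5 and 15.1 RPKM in H&H 35 mesenchyme (batches I and II here and below), against 24.1 and 26.1 RPKM in H&H 31 mesenchyme. The groups did not overlap, and the log2 difference was -0.77 ± 0.09 (SE, n = 2 each) with a limma adjusted p of 0.000212. PSMD3, a subunit of the lid, had 59.0 and 49.1 RPKM in H&H 35 mesenchyme, against 88.2 and 86.9 RPKM in H&H 31 mesenchyme. Its mean fell by 38.3%, with a log2 difference of -0.69 ± 0.12 (limma adjusted p = 0.00227).

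The alpha subunit PSMA6 had 95.6 and 88.1 RPKM in H&H 35 mesenchyme, against 128 and 135 RPKM in H&H 31 mesenchyme. Its log2 difference was -0.51 ± 0.10 (limma adjusted p = 0.00405). The beta subunit PSMB3 had 76.5 and 63.7 RPKM in H&H 35 mesenchyme, against 97.6 and 100.2 RPKM in H&H 31 mesenchyme, with a log2 difference of -0.50 ± 0.14 (limma adjusted p = 0.0197). The proteolytic subunit PSMB7 had 149.9 and 129.9 RPKM in H&H 35 mesenchyme, against 189.7 and 196 RPKM in H&H 31 mesenchyme. Its mean fell by 27.5% and its log2 difference was -0.46 ± 0.11 (limma adjusted p = 0.00947). In all 3 genes the lower H&H 31 library stood above the higher H&H 35 library.

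With 2 libraries a group the number of calls depended on single libraries, and so did the share of all genes tested that was called. The median stayed between -0.36 and -0.29 whichever library was left out. It was -0.29 without H&H 31 mesenchyme II, -0.30 without H&H 35 mesenchyme II and -0.35 without H&H 31 mesenchyme I. Over all genes tested the median was -0.004, -0.04 and -0.05 in these fits. PSMD5, PSMD3, PSMA6, PSMA7, PSMD1 and PSMD7 were called under each alternative tried. PSMB3 lost its call without H&H 31 mesenchyme I (adjusted p up to 0.118 over its alternatives), without H&H 31 mesenchyme II and without H&H 35 mesenchyme II, and PSMB7 lost it without either of the last 2 (adjusted p up to 0.0690). Quantile normalization left 13 calls, where 21% of all genes tested fell, and a median of -0.18, against -0.03 over all genes tested.

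Markers of red cells and of endothelium moved in the mesenchyme too. The summed RPKM of 4 red cell markers was 39.3 and 42.2 in H&H 35 mesenchyme, against 244 and 334 in H&H 31 mesenchyme, and 3 of the 4 fell. The summed RPKM of 7 endothelial markers was 179.5 and 151 in H&H 35 mesenchyme, against 83.2 and 86.8 in H&H 31 mesenchyme, and 6 of the 7 rose. Over all genes tested, 21.6% fell and 18.2% rose. For 8 macrophage markers the sums were 88.5 and 46.7 in H&H 35 mesenchyme, against 52.1 and 44.0 in H&H 31 mesenchyme. By limma 1 of the 7 tested rose, a share not above the background. Of these 7, 0 fell, and 1 was lower at an unadjusted p under 0.05. For 8 striated muscle markers the sums were 41.1 and 5.10, against 5.52 and 5.18, so batch I of H&H 35 stood apart. Of these markers, MYF5 and TNNT2, both of muscle, were at 0 in some mesenchyme libraries, and no other was. The part of these cells in the fall of the proteasome genes was not tested.

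**Figure D2:**
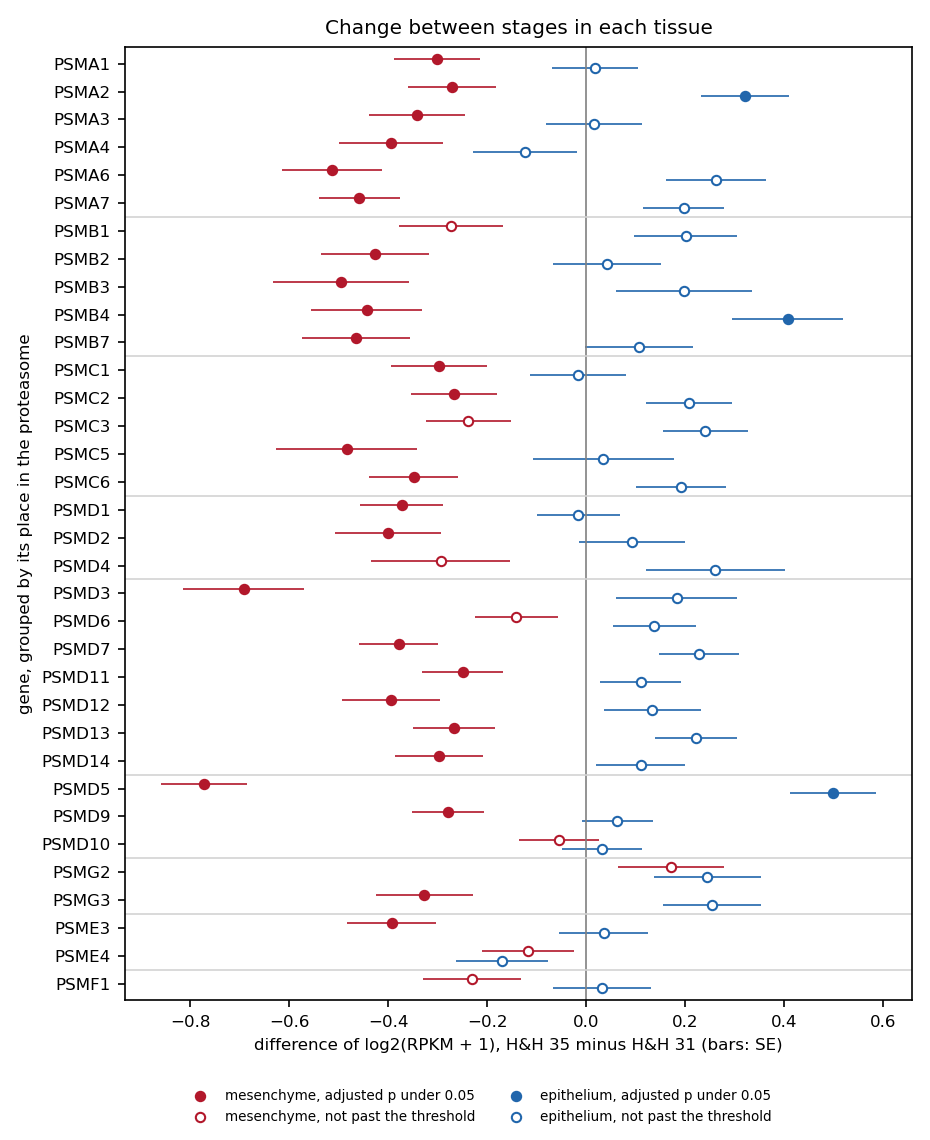
Points give each gene's difference of log2(RPKM + 1), H&H 35 minus H&H 31, in mesenchyme (red) and in epithelium (blue), with bars of 1 SE from limma (2 libraries a group) and filled points for an adjusted p under 0.05. In mesenchyme 33 of 34 points lie under 0 and 26 are filled, and in epithelium 30 lie above 0 and 3 are filled.

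In epithelium the same stages gave few calls. Of the 34 genes, 3 rose between the stages and 0 fell, while 18.6% of all genes tested rose and 15.9% fell, so the share that rose, 3 of 34, was below the background. At an unadjusted p under 0.05 also 0 fell. The median difference was 0.14 on the log2 scale, against 0.02 over all genes tested. Both H&H 35 libraries were above both H&H 31 libraries for 15 genes, against 37.5% of all genes tested. The direction came mostly from the H&H 35 epithelium library of batch I. Within batch I 33 genes were higher at H&H 35, with a median of 0.29. Within batch II 19 were higher, with a median of 0.01. Of all genes tested, 52.2% were higher within batch I and 53.3% within batch II, with medians of 0.02 and 0.03. The count in batch II was therefore near the background. The count of genes that rose depended on single libraries, and so did the share of all genes tested that rose. The median of the 34 genes was 0.27 without H&H 35 epithelium II and 0.04 without H&H 35 epithelium I. Over all genes tested the median was 0.02 and 0.03 in these fits. Without H&H 31 epithelium I or II the median of the 34 genes was 0.13 or 0.15, against 0.03 over all genes tested in each. The median of the 34 genes was 0.02 after scaling to an equal sum and 0.03 after quantile normalization.

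The genes that rose in epithelium were PSMD5, PSMB4 and PSMA2. PSMD5 had 21.8 and 20.9 RPKM in H&H 35 epithelium, against 14.9 and 14.7 RPKM in H&H 31 epithelium. Its log2 difference was 0.50 ± 0.09 (SE, n = 2 each), with a limma adjusted p of 0.00232, and it was called under each alternative. PSMB4, a beta subunit without a proteolytic site, had 145 and 115 RPKM in H&H 35 epithelium, against 93.1 and 101 RPKM in H&H 31 epithelium. Its log2 difference was 0.41 ± 0.11 (limma adjusted p = 0.0210). The alpha subunit PSMA2 had 142 and 121 RPKM in H&H 35 epithelium, against 109 and 101 RPKM in H&H 31 epithelium, with a log2 difference of 0.32 ± 0.09 (limma adjusted p = 0.0221). The libraries of the 2 stages did not overlap for these genes. PSMB4 lost its call without H&H 35 epithelium I and without H&H 31 epithelium I, with an adjusted p of up to 0.127 over its alternatives. PSMA2 lost it without these and also without H&H 31 epithelium II, with an adjusted p of up to 0.146.

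For the remaining genes no change in epithelium passed the test. Their log2 differences ran from -0.17 for PSME4 to 0.26 for PSMA6. PSMB7 had 189.9 and 155 RPKM in H&H 35 epithelium, against 162 and 156 RPKM in H&H 31 epithelium, so the groups overlapped. Its log2 difference of 0.11 ± 0.11 gave a limma adjusted p of 0.498. Melanocyte markers, 6 genes, summed to 340.0 and 395 RPKM in H&H 35 epithelium, against 255 and 189.6 RPKM in H&H 31 epithelium. By limma 4 of them rose while SOX10 fell, where 18.6% of all genes tested rose and 15.9% fell. The part of the melanocyte markers in the epithelial values was not tested.

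The change between stages was compared between the tissues with an interaction term, the difference in mesenchyme minus that in epithelium. It was negative and past the threshold for 24 of the 34 genes and positive and past it for 0, while the background was 23.0% negative and 19.4% positive. At an unadjusted p under 0.05 also 0 were positive. The median was -0.48 on the log2 scale, against -0.05 over all genes tested. Within batch I the median was -0.56 with 32 genes negative, and within batch II it was -0.38 with 33 negative. Over all genes tested, 51.1% and 56.6% were negative within these batches.

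PSMD5 had the largest such difference, at -1.27 ± 0.12 (SE, limma adjusted p = 8.58e-05), and was the gene that fell most in mesenchyme and rose most in epithelium. PSMD3 followed at -0.87 ± 0.17 (limma adjusted p = 0.00378), PSMB4 at -0.85 ± 0.16 (limma adjusted p = 0.00278) and PSMA6 at -0.78 ± 0.14 (limma adjusted p = 0.00271). All 5 beta genes were called, against 3 of 6 alpha genes, 3 of 5 ATPases, all 3 other base genes and 6 of 7 lid genes. The medians of these parts, in the same order, were -0.57, -0.47, -0.48, -0.49 and -0.49. PSMA1, PSMA3 and PSMC5 stood just above the threshold (limma adjusted p = 0.0643, 0.0633 and 0.0667), so the counts are not read as a difference between parts. With the batch number as a block PSMA3 and PSMC5 were called as well (limma adjusted p = 0.0421 and 0.0454) and PSMD4 was not (0.0643). PSME4 had the value nearest to a like change in both tissues, at 0.05 ± 0.13. The count of calls depended on single libraries. The median was -0.33 without H&H 35 epithelium I and -0.60 without H&H 35 epithelium II, against -0.06 and -0.04 over all genes tested. Without any other library the median of the 34 genes lay between -0.51 and -0.42. Scaling the libraries to an equal sum left 14 calls, where 16.4% of all genes tested were negative and past the threshold. Quantile normalization left 8 of the 34 genes, where 20.5% of all genes tested were, so that share was near the background. The median under quantile normalization was -0.19, against -0.03 over all genes tested. The background also moved with the library left out.

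At H&H 35 the mesenchyme lay below the epithelium for nearly all of the complex. Of the 34 genes, 30 were lower in mesenchyme and 0 higher at a limma adjusted p under 0.05, while 37.1% of all genes tested were lower and 29.1% higher. At an unadjusted p under 0.05 also 0 were higher. The median difference, mesenchyme minus epithelium, was -0.40 on the log2 scale, against -0.10 over all genes tested. Both mesenchyme libraries were below both epithelium libraries for 32 genes, against 46.2% of all genes tested. Within batch I all 34 genes were lower in mesenchyme, with a median of -0.49, and within batch II 33 were, with a median of -0.32. These counts stood against 55.3% and 56.6% of all genes tested. The genes not past the test were PSMA1, PSMB3, PSMC6 and PSME4, of which PSMB3 was called with the batch number as a block (limma adjusted p = 0.0479). All 7 lid genes and all 3 base chaperones were called.

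PSMF1, which binds the core and was first described as an inhibitor of it, had 22.6 and 19.0 RPKM in H&H 35 mesenchyme, against 39.7 and 36.0 RPKM in H&H 35 epithelium. The log2 difference was -0.83 ± 0.10 (SE, n = 2 each, limma adjusted p = 6.80e-05). PSMG3, a chaperone of the alpha ring, had 37.6 and 35.1 RPKM in H&H 35 mesenchyme, against 70.8 and 58.5 RPKM in H&H 35 epithelium. Its log2 difference was -0.81 ± 0.10 (limma adjusted p = 8.04e-05). In both genes each mesenchyme library was well below each epithelium library.

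PSMD3 had 59.0 and 49.1 RPKM in H&H 35 mesenchyme, against 106 and 85.0 RPKM in H&H 35 epithelium, with a log2 difference of -0.81 ± 0.12 (limma adjusted p = 0.000324). PSMD12, another lid subunit, had 44.6 and 46.4 RPKM in H&H 35 mesenchyme, against 78.7 and 65.7 RPKM in H&H 35 epithelium, with a log2 difference of -0.65 ± 0.10 (limma adjusted p = 0.000338). These 4 genes were called under each alternative. PSMB7 was called in the fit with all libraries, with a log2 difference of -0.29 ± 0.11 (limma adjusted p = 0.0391), but its adjusted p reached 0.575 over its alternatives and its direction turned to 0.05 under quantile normalization. It lost the call without any one of the 4 H&H 31 libraries, without H&H 35 epithelium I and without H&H 35 mesenchyme II. The count of genes lower in mesenchyme depended on single libraries, and so did the share of all genes tested. The median of the 34 genes was -0.36 without H&H 35 mesenchyme II. It was -0.27 without H&H 35 epithelium I and -0.55 without H&H 35 epithelium II. Over all genes tested the median was -0.11, -0.10 and -0.08 in these fits.

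**Figure D3:**
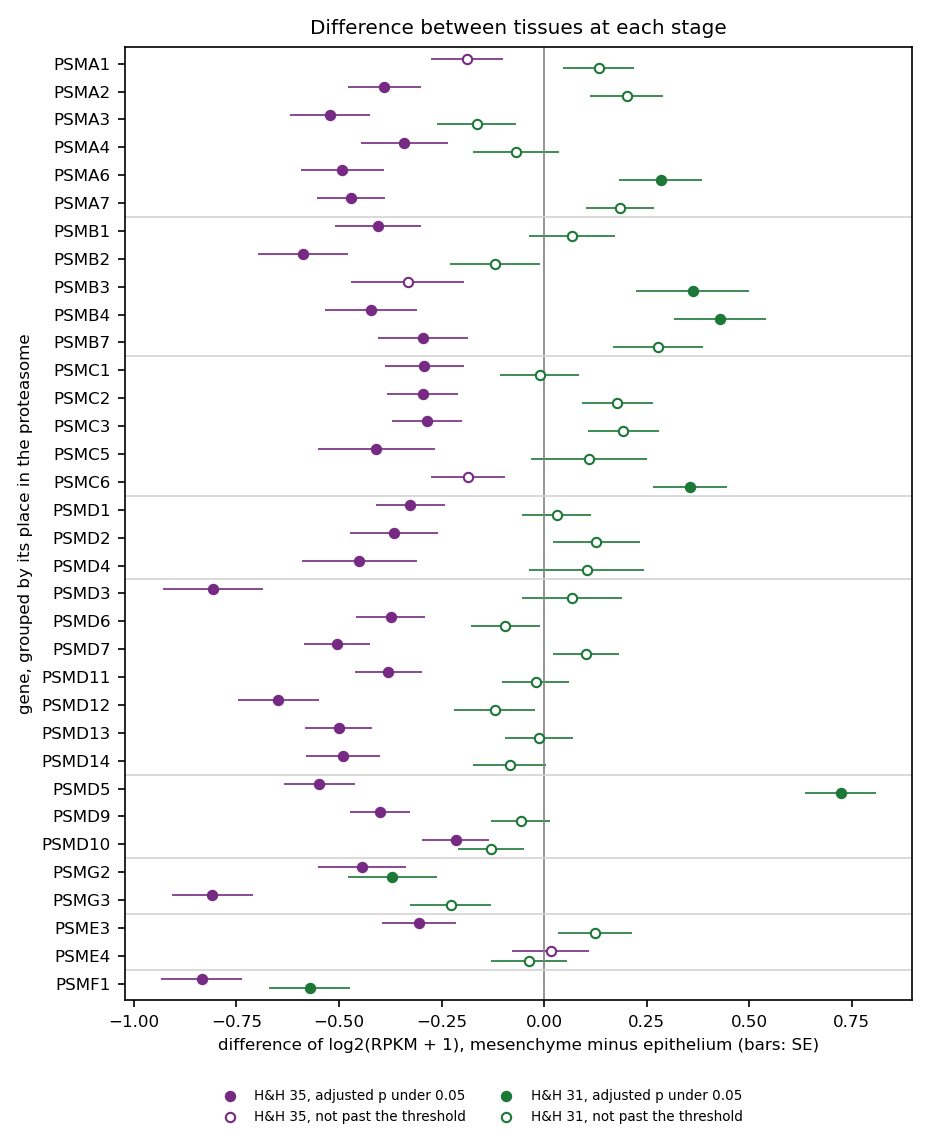
Points give each gene's difference of log2(RPKM + 1), mesenchyme minus epithelium, at H&H 35 (purple) and at H&H 31 (green), with bars of 1 SE from limma (2 libraries a group) and filled points for an adjusted p under 0.05. At H&H 35 33 of 34 points lie under 0 and 30 are filled, and at H&H 31 the points lie on both sides of 0 and 7 are filled.

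At H&H 31 the tissues differed in few of the genes and in both directions. Of the 34 genes, 5 were higher in mesenchyme and 2 lower, while 29.7% of all genes tested were higher and 27.7% lower, so both shares were below the background. The median difference was 0.07 on the log2 scale, against -0.01 over all genes tested. Quantile normalization turned it to -0.03, against -0.04 over all genes tested. With that scaling 4 genes were higher and 5 lower, where 27.8% and 30.4% of all genes tested were. Within batch I 19 genes were higher in mesenchyme, and within batch II 21 were, against 47.7% and 51.4% of all genes tested. With the batch number as a block PSMB7 was called higher as well (limma adjusted p = 0.0383, against 0.0560 without the block). The counts depended on single libraries here as well, and so did the shares of all genes tested. The median was 0.03 without H&H 31 epithelium I and 0.10 without H&H 31 epithelium II. It was 0.07 without H&H 31 mesenchyme I and 0.04 without H&H 31 mesenchyme II. Over all genes tested the median was 0.0028, 0.0025, 0.02 and -0.03 in these fits, in the same order.

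The higher genes were PSMD5, PSMB4, PSMB3, PSMC6 and PSMA6. PSMD5 had 24.1 and 26.1 RPKM in H&H 31 mesenchyme, against 14.9 and 14.7 RPKM in H&H 31 epithelium, with a log2 difference of 0.72 ± 0.09 (SE, n = 2 each, limma adjusted p = 8.71e-05). With -0.55 ± 0.09 at H&H 35 (limma adjusted p = 0.000439), PSMD5 lay above the epithelium at one stage and below it at the other, and it was called at both under each alternative. PSMB4 had 129 and 134 RPKM in H&H 31 mesenchyme, against 93.1 and 101 RPKM in H&H 31 epithelium. Its log2 difference was 0.43 ± 0.11 (limma adjusted p = 0.00923).

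PSMB3 had 97.6 and 100.2 RPKM in H&H 31 mesenchyme, against 74.2 and 79.4 RPKM in H&H 31 epithelium, with a log2 difference of 0.36 ± 0.14 (limma adjusted p = 0.0489). The ATPase PSMC6 had 113 and 126 RPKM in H&H 31 mesenchyme, against 91.9 and 93.8 RPKM in H&H 31 epithelium, with a log2 difference of 0.36 ± 0.09 (limma adjusted p = 0.00816). No library of one tissue overlapped those of the other in these genes. PSMC6 lost its call without H&H 31 mesenchyme II, and PSMB4 lost it without that library and without H&H 31 epithelium I. PSMB3 and PSMA6 lost it without any one of the 4 H&H 31 libraries. Their adjusted p reached 0.0720 for PSMC6, 0.0660 for PSMB4, 0.185 for PSMB3 and 0.194 for PSMA6 over the alternatives.

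PSMF1 and PSMG2 were the genes called lower in mesenchyme at both stages. PSMF1 had 24.8 and 24.3 RPKM in H&H 31 mesenchyme, against 38.4 and 35.6 RPKM in H&H 31 epithelium, with a log2 difference of -0.57 ± 0.10 (limma adjusted p = 0.000931), and it was called under each alternative. Its change between stages did not pass the test in mesenchyme (-0.23 ± 0.10, limma adjusted p = 0.0948) or in epithelium (0.03 ± 0.10, limma adjusted p = 0.846). PSMG2, a chaperone of the alpha ring, had 22.2 and 25.3 RPKM in H&H 31 mesenchyme, against 30.4 and 31.4 RPKM in H&H 31 epithelium. The log2 difference was -0.37 ± 0.11 (limma adjusted p = 0.0157). At H&H 35 PSMG2 had 28.3 and 25.4 RPKM in mesenchyme, against 40.2 and 33.7 RPKM in epithelium, with a log2 difference of -0.44 ± 0.11 (limma adjusted p = 0.00536). The call at H&H 31 was lost without H&H 31 epithelium I, H&H 31 epithelium II or H&H 31 mesenchyme I, with an adjusted p of up to 0.118.

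A few genes went their own way, and they were singled out after their values were seen. PSMG2 was the only one of the 34 with a positive stage difference in mesenchyme, 0.17 ± 0.11 on the log2 scale, which did not pass the test (limma adjusted p = 0.239). PSME4 passed the test in none of the comparisons. It had 10.8 and 11.8 RPKM in H&H 35 mesenchyme, against 12.4 and 12.3 RPKM in H&H 31 mesenchyme, and 10.8 and 11.5 RPKM in H&H 35 epithelium, against 13.3 and 12.2 RPKM in H&H 31 epithelium. PSMD10 lay between 24.9 and 30.7 RPKM in all libraries and was called only at H&H 35, where it was lower in mesenchyme by a log2 difference of -0.22 ± 0.08 (limma adjusted p = 0.0410). That call was lost without any one library other than H&H 35 epithelium I, with an adjusted p of up to 0.317.

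**Figure D4:**
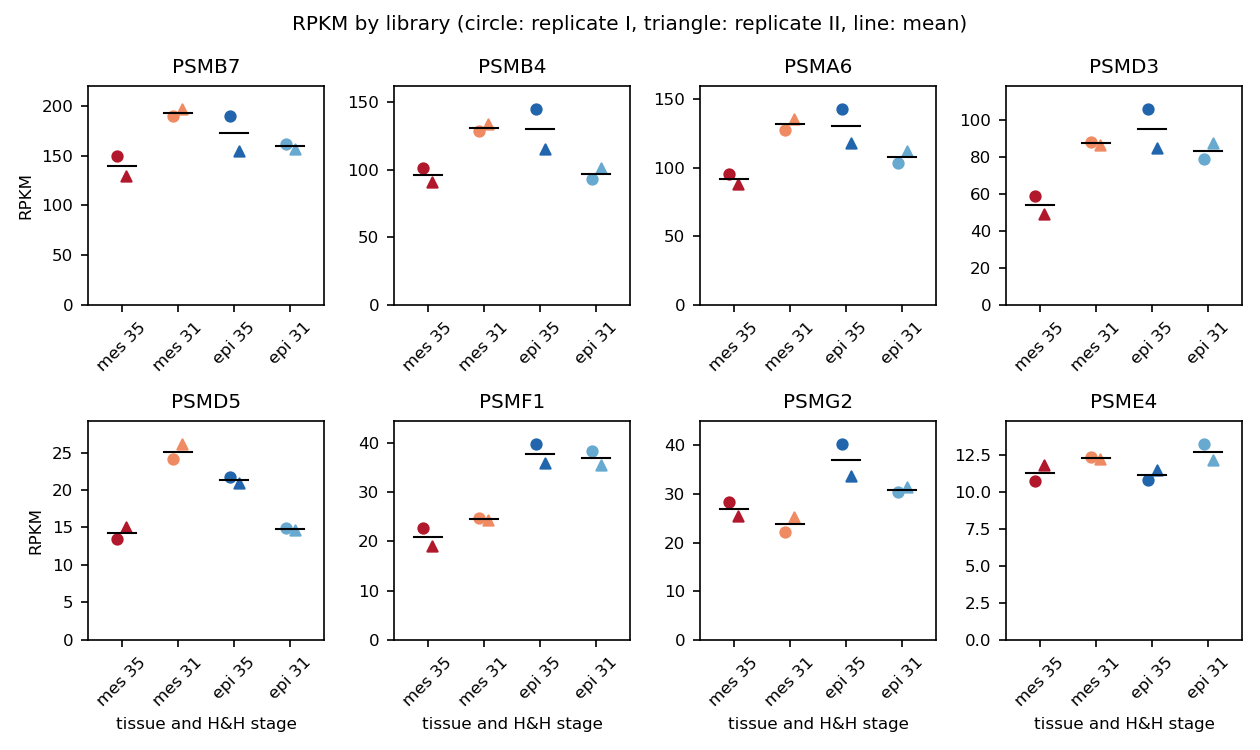
Each panel gives the RPKM of 1 gene in the 8 libraries (circle for batch I, triangle for batch II, line for the mean of 2), with the vertical axis starting at 0 and mesenchyme at H&H 35 and H&H 31 left of epithelium at H&H 35 and H&H 31. PSMD5 is low in H&H 35 mesenchyme and H&H 31 epithelium, PSMF1 and PSMG2 are lower in both mesenchyme groups than in either epithelium group, and PSME4 lies between 10.8 and 13.3 RPKM throughout.

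Genes that work with the proteasome but carry other names were taken as a list of their own, of which 8 were in the table. By limma, 4 of the 8 fell between the stages in mesenchyme and 0 rose, and in epithelium 2 rose and 0 fell, with 0 also at an unadjusted p under 0.05 for either direction that had none. Of all genes tested, 21.6% fell in mesenchyme and 18.6% rose in epithelium, so the epithelial share was near the background. UCHL5, a deubiquitinase bound to the regulatory particle, had 34.3 and 34.1 RPKM in H&H 35 mesenchyme, against 48.7 and 49.6 RPKM in H&H 31 mesenchyme, and 70.1 and 59.0 RPKM in H&H 35 epithelium, against 42.3 and 41.1 RPKM in H&H 31 epithelium. Its log2 difference between stages was -0.51 ± 0.09 in mesenchyme (limma adjusted p = 0.00203) and 0.61 ± 0.09 in epithelium (limma adjusted p = 0.000854), with an interaction of -1.13 ± 0.13 (limma adjusted p = 0.000182). In neither tissue did the libraries of the stages overlap for UCHL5.

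The other deubiquitinase on the list, USP14, had a log2 difference of 0.49 ± 0.09 in epithelium (limma adjusted p = 0.00294). In mesenchyme USP14 fell by -0.41 ± 0.09 (limma adjusted p = 0.00650), with an interaction of -0.89 ± 0.13 (limma adjusted p = 0.000631). The ubiquitin receptor ADRM1, to which UCHL5 binds, had a log2 difference of -0.44 ± 0.11 in mesenchyme (limma adjusted p = 0.0106). ADRM1 did not pass the test in epithelium (limma adjusted p = 0.858). The core chaperone PSMG1 stands in the table under its older name DSCR2, outside the naming rule, and was added after the values were seen. It had 18.5 and 17.9 RPKM in H&H 35 mesenchyme, against 25.6 and 27.7 RPKM in H&H 31 mesenchyme, and 29.6 and 27.4 RPKM in H&H 35 epithelium, against 19.8 and 20.2 RPKM in H&H 31 epithelium. DSCR2 fell in mesenchyme by a log2 difference of -0.52 ± 0.08 (limma adjusted p = 0.00114) and rose in epithelium by 0.49 ± 0.08 (limma adjusted p = 0.00176). Its partner in the chaperone pair, PSMG2, did not pass the test in either tissue.

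Ubiquitin genes and the factors that carry substrates to the proteasome formed a list with 10 genes in the table. In mesenchyme 2 rose and 2 fell between stages, where 18.2% of all genes tested rose and 21.6% fell. In epithelium 3 rose and 1 fell, where 18.6% rose and 15.9% fell, so these shares were not far from the background. RPS27A, which encodes ubiquitin fused to a ribosomal protein, rose in mesenchyme by a log2 difference of 0.36 ± 0.10 (limma adjusted p = 0.0196), and the shuttle factor UBQLN4 fell there by -0.37 ± 0.09 (limma adjusted p = 0.00885). In epithelium the shuttle factor UBQLN1 rose by 0.47 ± 0.08 (limma adjusted p = 0.00207), and NPLOC4, a cofactor of the segregase VCP, fell by -0.65 ± 0.08 (limma adjusted p = 0.000405). RPS27A also rose in epithelium, by 0.47 ± 0.10 (limma adjusted p = 0.00650), and NPLOC4 also fell in mesenchyme, by -0.30 ± 0.08 (limma adjusted p = 0.0184). UBQLN4 in epithelium and UBQLN1 in mesenchyme did not pass the test.

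The list around NFE2L1, the factor that raises proteasome genes in mammals, had 7 genes in the table. In mesenchyme 1 rose and 2 fell, near the background of 18.2% and 21.6%. NFE2L2, a related factor, rose by a log2 difference of 0.36 ± 0.10 (limma adjusted p = 0.0179). Those that fell were MAFK, a small MAF partner, at -0.42 ± 0.12 (limma adjusted p = 0.0205), and DDI2, the protease that activates NFE2L1, at -0.37 ± 0.10 (limma adjusted p = 0.0184). In epithelium 0 of the 7 passed limma's test, and 1 had an unadjusted p under 0.05. NFE2L1 itself, named after its values were seen, had 30.6 and 31.2 RPKM in H&H 35 mesenchyme, against 31.9 and 32.8 RPKM in H&H 31 mesenchyme. It had 31.4 and 31.9 RPKM in H&H 35 epithelium, against 31.4 and 32.6 RPKM in H&H 31 epithelium. Its log2 difference between stages was -0.06 ± 0.07 in mesenchyme (limma adjusted p = 0.511) and -0.01 ± 0.07 in epithelium (limma adjusted p = 0.911).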

How the data were processed

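Total RNA of separated dorsal skin epithelium and mesenchyme was sequenced by the authors as 50 bp single-end reads from TruSeq libraries. Reads were trimmed and mapped to galGal4 in Partek Flow, and the submitters' processing notes also name TopHat2. Software versions and the gene annotation are not given in the sources used here. The deposited table holds RPKM per gene and library, with a count of alignments for each library, and no scaling between libraries is stated. Strandedness of the counting is not stated, so reads of overlapping or antisense genes cannot be told apart, and near-identical copies may share reads. Read counts of single genes were not used.

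Genes with at least 1 RPKM in at least 2 libraries were fitted on log2(RPKM + 1) with limma 3.58.1 in R 4.3.3, with 1 mean for each of the 4 groups, a trended prior and two-sided moderated tests. The pseudocount of 1 understates changes of low genes. The 5 comparisons were the change between stages in each tissue, the difference between tissues at each stage, and the interaction. P-values were adjusted by Benjamini-Hochberg over all 11155 genes, with a threshold of 0.05. The fit was tested on simulated data with independent noise for each gene, a setting without shifts shared by many genes of a library. Nothing says that the 2 libraries of a group came from separate embryos beyond the authors' term biological replicates.

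The labels give a batch number, I or II, to each library, and this is where the pairing of libraries comes from. Deviations from the group means, over all genes tested, were correlated between libraries of the same number. Between the tissues the correlation was 0.194 at H&H 31 and 0.316 at H&H 35. Between groups of different stages it was -0.184 to 0.0396. Stage comparisons and the interaction within a batch therefore pair the stages by the label alone. The batch number entered as a replicate block in an alternative fit. Other alternatives were the pseudocount, the filter, 3 scalings, other variance estimates, fits of only the libraries compared, and leaving out each library in turn.

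Every gene matching the naming rule was named. Values by library were given for PSMB7 and, in each comparison, for up to 4 called genes in each direction with the largest difference and no overlap of libraries, and for the genes said to be singled out. From the other lists up to 2 called genes with the largest change were named in each stage comparison. The genes, lists and tests were chosen with earlier results of these data known. All 34 gene names were found in the RefSeq gene table of another assembly, so no coordinates are given. No sequences were used.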

Additional observations from a re-analysis of the deposited data

Results flagged for a closer look

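The change between stages differed between mesenchyme and epithelium, by limma's interaction test, for 24 of the 34 proteasome genes. All values are log2 differences, the change in mesenchyme minus that in epithelium, and all are negative. Among alpha genes they were PSMA6 (-0.78), PSMA7 (-0.66) and PSMA2 (-0.59), and among beta genes PSMB4 (-0.85), PSMB3 (-0.69), PSMB7 (-0.57), PSMB1 (-0.47) and PSMB2 (-0.47). The ATPases were PSMC6 (-0.54), PSMC3 (-0.48) and PSMC2 (-0.47), the other base genes PSMD4 (-0.56), PSMD2 (-0.49) and PSMD1 (-0.36), and the lid genes PSMD3 (-0.87), PSMD7 (-0.61), PSMD12 (-0.53), PSMD13 (-0.49), PSMD14 (-0.41) and PSMD11 (-0.36). The chaperones were PSMD5 (-1.27), PSMG3 (-0.58) and PSMD9 (-0.34), and the activator was PSME3 (-0.43). PSMD5 had the smallest adjusted p, 8.58e-05, and PSMD4 the largest, 0.0499. Of the 24 calls, 5 were kept under each alternative tried, those of PSMA6, PSMA7, PSMB4, PSMD5 and PSMD7.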

How the results depend on the processing

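The signs of the medians over the 34 genes held under each alternative tried, except that quantile normalization turned the median of mesenchyme minus epithelium at H&H 31. Without 1 library, genes that fell between stages in mesenchyme numbered 7 to 28, and genes that rose in epithelium 1 to 15, with an epithelial median of 0.037 to 0.267. Genes lower in mesenchyme at H&H 35 then numbered 18 to 32, with a median of -0.55 to -0.27. At H&H 31 the counts were 1 to 9 higher and 1 to 3 lower in mesenchyme. In the interaction 12 to 29 genes were called, with a median of -0.60 to -0.33. Scaling to an equal sum gave an epithelial stage median of 0.020, a tissue median at H&H 35 of -0.29 and an interaction with 14 calls and a median of -0.31. It moved the median of all genes tested to 0.10 in the interaction (from -0.05) and to 0.01 between tissues at H&H 35 (from -0.10), and the median of the 34 genes minus that of all genes stayed at -0.40 and -0.29. In the interaction the background then was 24.2% positive and 16.4% negative, and in the epithelial stage comparison 13% higher and 20.8% lower. Quantile normalization gave an epithelial stage median of 0.031 and left 13 genes that fell in mesenchyme (median -0.18), 5 lower in mesenchyme at H&H 31, 18 lower at H&H 35 (median -0.23) and 8 in the interaction (median -0.19), and turned PSMB7 at H&H 35 to 0.049. With quantile normalization 21% of all genes tested fell in mesenchyme, and 30.4% and 38.1% were lower in mesenchyme at H&H 31 and H&H 35. In the interaction 20.5% were negative, so the 8 of 34 there were near the background. Median-ratio scaling left 15 interaction calls, where 19.2% of all genes tested were negative. With each gene's own variance 1 gene rose in epithelium and 8 fell in mesenchyme. At H&H 31 2 were higher and 1 lower in mesenchyme, and 8 were called in the interaction. Of all genes tested, 12.9% rose in epithelium and 15.1% fell in mesenchyme in that fit. At H&H 31 26.1% were higher and 24.1% lower in mesenchyme, and 16.6% were negative in the interaction. Fits of only the libraries compared gave 1 gene that rose in epithelium, where 15.9% of all genes tested rose. They gave 10 higher in mesenchyme at H&H 31, where 32% of all genes tested were higher, so that share was near the background. No filter and no trend each gave 3 higher there, against 24.4% and 29.1% of all genes tested. The replicate block gave 25 genes that fell in mesenchyme, 31 lower at H&H 35 and 25 in the interaction. Of all genes tested, 21.3%, 37.1% and 22.6% were called in these directions. The replicate block moved no count by over 1.5 times. It changed the calls of PSMD11, PSMB7, PSMB3, PSMA3, PSMC5 and PSMD4 in 1 comparison each, as given above, and no other call of the 34 genes. The shares of all genes tested that were called also moved with the library left out. Counts of calls in fits without 1 library are therefore given only as the ranges above. Each such fit left 1 library in a group, so these ranges are not compared with a background. The cause of these shifts was not tested. With 2 libraries a group, calls rest on a spread shared over all genes, and a gene not past the threshold is not shown to be unchanged.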
